A study of Rattus norvegicus with 14 samples.

Results

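Lymphocytes recognise antigen through receptor complexes at their surface. In B cells the signal passes through the Cd79 chains to the kinase Btk and the adaptor Blnk, and in T cells it passes through the Cd3 chains, helped by the coreceptors Cd4 and Cd8. The variable part of each receptor is built by cutting and rejoining gene segments, a step that the Rag proteins begin and Dclre1c (Artemis) helps to complete, while the chemokine receptor Ccr7 guides lymphocytes and dendritic cells to lymphoid tissue. The choroid plexus (CP), the epithelium that secretes cerebrospinal fluid, has leaky capillaries and a stroma populated by macrophages, dendritic cells and few lymphocytes. Several of these genes are not confined to lymphocytes: Btk and Blnk are also used by myeloid cells, rat macrophages carry Cd4, and Dclre1c repairs DNA breaks in cells of many kinds.

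The 9 genes Btk, Blnk, Cd79b, Cd3e, Cd4, Cd8a, Ccr7, Dclre1c and Rag1 were chosen by name, with earlier results of these data known. They come from the 15154 genes that could be named on the arrays. Each of the 9 was read by 1 probe with 1 spot per array. CP from the lateral ventricles of Wistar rats was compared between ovariectomized (OVX) and sham-operated females (3 arrays each) and between orchidectomized (OOX) and sham-operated males (4 arrays each). The rats were operated on at the age of 2 months and CP was taken 2 weeks later. For each array 200 ng of RNA pooled from 3 animals was amplified and labelled with a single dye. The methods name fewer male pools than the labels, all 14 arrays were used, and the sources do not say if pools shared animals. The p-values thus measure the spread between pools, which were taken as independent.

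Values are the background-subtracted signal on the log2 scale relative to the median probe of the array, which makes a value of 0 the array's typical signal. Between 79.7% and 87.2% of spots were well above background as judged by the scanner software. All 10 CP epithelium markers and 16 of 18 macrophage markers were well above background on all 14 arrays. The lowest signal that counted as well above background lay between -4.80 and -4.63 on OVX arrays and between -4.28 and -3.75 on sham female arrays, and between -4.72 and -4.10 on OOX arrays and between -4.72 and -3.90 on sham male arrays. Genes that no female array measured above background, 1771 in all, had a median difference of -0.59 between OVX and sham, against -0.06 for the 12506 genes measured on every array of either group. Small differences of dim genes in females are therefore given with their detection. The arrays lay on 5 slides scanned on 2 days, with the 3 sham female arrays and OVX replicate 1 on the earlier day. Within-slide values compare OVX replicate 1 with sham female replicate 3, and OOX replicate 4 with the mean of sham male replicates 1 and 2.

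Blnk, Ccr7, Cd4 and Dclre1c were well above background on all 14 arrays. Btk, Cd79b, Cd8a and Cd3e were so on 10, 7, 3 and 1 of them, and Rag1 on none. In the bulk RNA of a pool, fewer cells of a type and less RNA per cell cannot be told apart.

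Upstream sequence is shown for Blnk and Dclre1c, members with higher signal in every OVX pool than in any sham female pool for which the RefSeq promoter table (assembly GRCr8) held bases outside the gene. The table gives 250 bases before 1 start per gene, and the gene table of the same assembly can reach further upstream. The start of Blnk is the gene's outer end, whereas those of Btk and Dclre1c lie 305 and 97 bases inside it, so that the Btk window lies wholly within the gene and is not printed. The sequences are read 5′ to 3′ along the gene, both on the minus strand of the assembly. Blnk is all 250 bases at chr1:249770534-249770783, and Dclre1c is the 153 bases of its window outside the gene, at chr17:79718400-79718552. Capitals mark GGTCA, the letters of an estrogen response half-site, or its reverse complement TGACC.
Blnk: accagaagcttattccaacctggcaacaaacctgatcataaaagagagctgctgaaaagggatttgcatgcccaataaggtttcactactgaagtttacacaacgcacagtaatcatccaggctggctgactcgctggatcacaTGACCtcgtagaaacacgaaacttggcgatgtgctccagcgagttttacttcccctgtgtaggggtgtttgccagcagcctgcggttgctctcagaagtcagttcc
Dclre1c: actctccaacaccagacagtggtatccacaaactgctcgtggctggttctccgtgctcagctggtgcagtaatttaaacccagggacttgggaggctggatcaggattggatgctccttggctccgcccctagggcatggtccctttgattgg
The first base of the match in Blnk lay at position -106, counted from the base before the start as -1. In Dclre1c the match lay at -34 from the table's start and in Btk at -247, both inside the gene's outer limits, so that the printed Dclre1c stretch holds none. GGTCA was found on either strand in 4 of the 6 members with a window in the table, which also include Cd8a, Cd3e and Rag1, and in 35.42% of all 33469 windows of the same length. The full estrogen response element, GGTCA and TGACC with 3 bases between them, was in none of the 6 and in 8 of the 33469 (0.02%). GAGGAA, a core bound by the leukocyte factor PU.1, was in the Cd3e window alone among the 6 and in 23.34% of all windows on either strand. Such a match describes letters and says nothing of binding.

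In CP of OVX females 2 of the 9 genes passed at an adjusted p under 0.05 (limma, Benjamini-Hochberg over all named genes and unnamed probes), Dclre1c and Btk, both higher, beside 6.22% of all genes in either direction. By groups that did not overlap, 6 of the 9 separated OVX from sham, all with OVX above, beside 27.7% of all genes in either direction. At an unadjusted p under 0.05 the same 6 genes were counted, beside 19.9% of all genes. The thresholds that the methods name, an unadjusted p under 0.05 with a fold above 1.5, took in 5 members as higher (Blnk, Btk, Ccr7, Cd4 and Dclre1c) and 0 as lower, beside 4.3% of all genes counted as higher. The median log2 difference of the 9 was 0.63, and that of all genes was -0.07. Blnk, Btk, Cd4 and Dclre1c also stand in a list of immunodeficiency genes that the study reported as up-regulated in OVX females on these arrays. Their shared direction and their part in the counts above are therefore not independent evidence. Of the 6 measured genes of that list 3 were called higher in OVX females (Btk, Dclre1c and Rfx5) and 0 in males, with medians of 0.70 in females and 0.11 in males. Because the list was picked on the female values, this contrast is no evidence of a difference between the sexes.

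**Figure D1:**
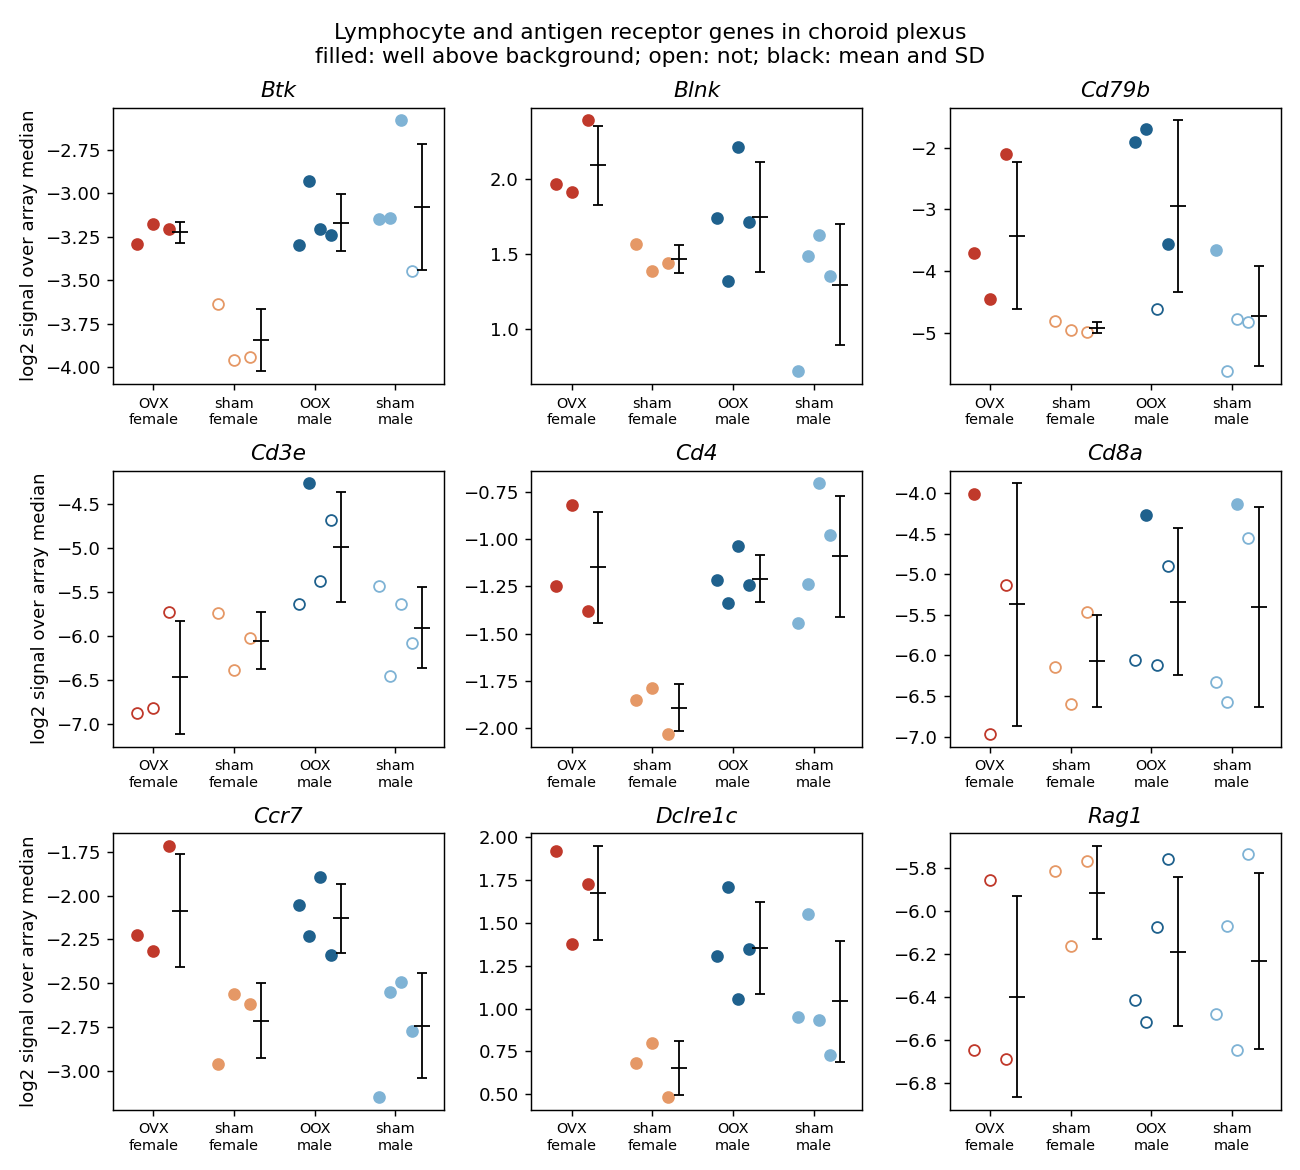
Log2 signal over the array median (vertical axes, each with its own range) of the 9 genes in the 4 groups (horizontal axes). Each point is 1 pool, filled where well above background and open where not, and the black marks are the mean and SD of 3 or 4 pools. The OVX points of Btk, Blnk, Cd79b, Cd4, Ccr7 and Dclre1c all lie above those of sham females.

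Dclre1c, the nuclease that opens the hairpin ends left by the Rag proteins, had the clearest difference. Its signal was 1.92, 1.38 and 1.72 in OVX pools, against 0.68, 0.80 and 0.48 in sham female pools. The lowest OVX pool lay above the highest sham pool, and all arrays measured it. The means were 1.67 ± 0.28 in OVX and 0.66 ± 0.16 in sham females (SD, n = 3 each), a log2 difference of 1.02 (SE 0.18, 95% confidence interval 0.58 to 1.46, adjusted p = 0.0401) or 2.03-fold. Within the shared slide the difference was 1.44. Dclre1c kept a difference from 0.90 to 1.44 under all 19 alternatives run and was called under 9 of them. Leaving out any pool but sham female replicate 2 raised its adjusted p to between 0.0791 and 0.125, and with slide as a block it was 0.53.

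In males Dclre1c was 1.31, 1.71, 1.05 and 1.35 in OOX pools and 0.95, 1.55, 0.94 and 0.73 in sham pools. These groups overlapped through sham replicate 2. The difference was 0.31 (SE 0.22, 95% confidence interval -0.18 to 0.80, adjusted p = 0.842), and 0.10 within the shared slide. The male effect minus the female effect was -0.71 (SE 0.30, adjusted p = 0.417), so that the sexes were not shown to differ.

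Rag1, the recombinase subunit that binds the gene segments, was not well above background on any array. Its readings ran from -6.69 to -5.73, which gives no level and no fold. Rag2, its partner, was read at -3.27, -3.64 and -2.72 in OVX pools against -3.05, -3.42 and -2.81 in sham female pools, which overlapped. In males Rag2 was -3.104, -3.437, -2.732 and -2.871 in OOX pools against -4.027, -3.511, -3.448 and -3.549 in sham pools, and was dim on 2 sham male arrays. The male groups did not overlap, and the difference of 0.60 (SE 0.20, limma adjusted p = 0.602) did not pass. The list of other recombination and end joining genes had 12 of 13 measured genes. None of the 12 passed in either sex at an adjusted p under 0.05, and at an unadjusted p under 0.05 none was higher and 2 were lower in OVX females, with a median of -0.05. At the same unadjusted threshold 1 was higher and 0 were lower in OOX males, with a median of 0.04. Lig4, the ligase that seals the ends opened by Dclre1c, was read at 1.71, 1.38 and 0.96 in OVX pools against 1.36, 0.89 and 0.69 in sham female pools, which overlapped.

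Btk, the tyrosine kinase downstream of the B cell receptor, was -3.29, -3.18 and -3.21 in OVX pools, against -3.64, -3.96 and -3.94 in sham female pools. Every OVX pool lay above every sham pool. All 3 OVX arrays and 0 of 3 sham female arrays measured it well above background, so that the change is given as a bound. With this scaling Btk was at least 1.47-fold higher after OVX (limma log2 difference 0.62, SE 0.14, adjusted p = 0.0496). For this bound each sham value was raised to the lowest signal well above background on its array where that was higher. Sham female replicates 1 and 2 read above that signal without counting as well above background, so that the bound is no strict minimum. The bound stayed between 1.38-fold and 1.55-fold as each pool was left out, a check added after the data were seen. The means were -3.23 ± 0.06 in OVX and -3.85 ± 0.18 in sham females (SD, n = 3 each), and the within-slide difference was 0.65. With normexp background correction and an offset of 50 the difference of Btk was 0.01 (adjusted p = 0.987) and with quantile normalization 0.30 (adjusted p = 0.411). Both lie below the bound, which is 0.56 on the log2 scale. The added offset shrinks log2 differences of dim signals, so that the normexp value does not test the bound. Leaving out any of the 6 pools gave an adjusted p from 0.0873 to 0.152.

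In males Btk was -3.30, -2.93, -3.20 and -3.24 in OOX pools and -3.15, -3.14, -2.58 and -3.45 in sham pools. The OOX values lay inside the range of the sham values. The difference was -0.09 (SE 0.20, adjusted p = 0.959), and the male minus the female effect was -0.71 (SE 0.26, adjusted p = 0.373). By the group means, Btk ran from sham males through OOX males and OVX females to sham females. Only the step between OVX and sham females had ranges that did not overlap, and 1 of the 3 OVX arrays shared its slide and scan day with a sham female array.

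Blnk, the adaptor that gathers Btk and phospholipase C around the activated receptor, was 1.97, 1.91 and 2.39 in OVX pools, against 1.57, 1.39 and 1.44 in sham female pools. The groups did not overlap. The means were 2.09 ± 0.26 in OVX and 1.47 ± 0.09 in sham females (SD, n = 3 each), a difference of 0.63 (SE 0.17, 95% confidence interval 0.23 to 1.03, adjusted p = 0.0763) that did not pass, and 0.53 within the shared slide. In males it was 1.74, 1.32, 2.21 and 1.72 in OOX pools and 0.72, 1.49, 1.63 and 1.35 in sham pools. OOX replicate 2 fell among the sham pools and the groups overlapped. The difference was 0.45 (SE 0.25, adjusted p = 0.755) in males and 0.61 within the shared male slide, and Blnk was positive in both sexes under every alternative run.

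Cd79b, the signaling chain that pairs with Cd79a in the B cell receptor, varied widely between pools. It was -3.71, -4.45 and -2.11 in OVX pools and -4.81, -4.95 and -4.98 in sham female pools. All 3 OVX arrays and 0 of 3 sham female arrays measured it. With this scaling the same kind of bound gives at least 1.44-fold higher signal after OVX. The limma difference of 1.49 (SE 0.56, adjusted p = 0.184) did not pass. The bound rests on OVX replicate 3: without that pool it was -0.13 on the log2 scale, which gives no fold, and OVX replicate 2 read lower than the lowest signal well above background on any sham female array. With normexp the Cd79b difference was 0.23 in females (adjusted p = 0.64). In males it was -1.90, -1.70, -4.62 and -3.56 in OOX pools and -3.65, -5.62, -4.78 and -4.83 in sham pools. Of the male arrays 3 of 4 OOX and 1 of 4 sham measured it, the groups overlapped, and the difference was 1.78 (SE 0.69, adjusted p = 0.648) and 0.27 with normexp.

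The 3 highest Cd79b values, of OVX replicate 3 and OOX replicates 1 and 2, all came from 1 slide. That slide held OVX replicate 3 and OOX replicates 1 to 3 and no sham array. The remaining array on it, OOX replicate 3, was among the low values. Within the slides that held both groups Cd79b was 1.27 higher in OVX replicate 1 than in sham female replicate 3 and 1.08 higher in OOX replicate 4 than in the mean of its sham arrays. The part of the slide in the pool-to-pool spread was not tested.

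Spib, a transcription factor of B cells and plasmacytoid dendritic cells, was set beside Cd79b after its values were seen. Spib was -3.05, -3.39 and -1.81 in OVX pools against -4.50, -3.67 and -4.19 in sham female pools, and -3.86, -1.31, -3.32 and -2.79 in OOX pools against -2.88, -4.41, -3.87 and -4.01 in sham male pools. OVX replicate 3 and OOX replicate 2 held its highest values. They are 2 of the 3 pools with the highest Cd79b, and OOX replicate 1, the third, was not high for Spib. The OVX and sham female pools did not overlap in Spib, and it did not pass (adjusted p = 0.129 by limma). Spib was picked from the B cell list, whose 17 measured genes had a mean level of -3.134, -3.057 and -2.398 in OVX pools. That mean was -3.03, -2.565, -2.872 and -2.357 in OOX pools, so that OOX replicate 4 was highest. Over sham pools it ran from -3.258 to -2.975 in females and from -3.326 to -2.57 in males. Genes of that list went in both directions, as counted below.

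**Figure D2:**
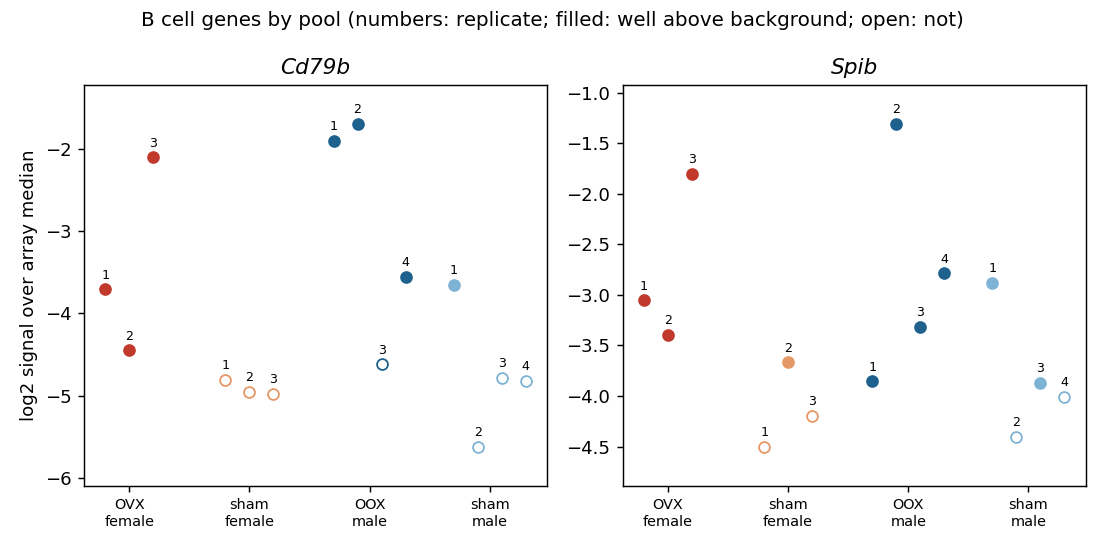
Log2 signal over the array median (vertical axes) of Cd79b and Spib in each pool of the 4 groups (horizontal axes), with replicate numbers beside the points. Filled points were well above background and open points were not. OVX replicate 3 and OOX replicate 2 stand high in both genes, and OOX replicate 1 in Cd79b only. Spib was picked from its list after its values were seen.

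Among the other B cell receptor genes listed, 17 of 22 were measured, with Cd79a, Ms4a1, Tnfrsf13b, Tnfrsf13c and Vpreb1 not analysed here. In OVX females 0 were called higher and 1 lower, and at an unadjusted p under 0.05 there were 5 higher and 3 lower, with a median of 0.37. The gene called lower was Pik3ap1, the adaptor that links the B cell receptor to phosphoinositide 3-kinase. It was 0.66, 0.70 and 0.37 in OVX pools, against 1.94, 1.89 and 1.83 in sham female pools, and every OVX pool lay below every sham pool. The log2 difference of Pik3ap1 was -1.31 (SE 0.14, adjusted p = 0.0342), and -1.18 within the shared slide, and it was called under 10 of 19 alternatives. Leaving out any pool but sham female replicate 2 gave Pik3ap1 an adjusted p from 0.0775 to 0.112. With slide as a block the limma adjusted p of its female difference was 0.534, and with scan day as a block 0.165. In males its mean was 1.75 ± 0.30 in OOX and 1.06 ± 0.29 in sham pools (SD, n = 4 each), a difference of 0.68 (SE 0.21, adjusted p = 0.517). The male effect minus the female effect, 1.99 (SE 0.27, adjusted p = 0.00707), passed, where 0.251% of all genes did, and was called under 22 of 25 alternatives. These include all 14 that left out a pool, and the highest limma adjusted p among the 25 was 0.39. In females the difference of Pik3ap1 was negative where that of Blnk, another B cell receptor adaptor, was 0.63. In GRCr8 both lie on chromosome 1, with 4 protein-coding genes between them (Dntt, Opalin, Tll2 and Tm9sf3).

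Cd4, the coreceptor for class II molecules, was -1.25, -0.82 and -1.38 in OVX pools, against -1.86, -1.79 and -2.04 in sham female pools. The groups did not overlap, and every array measured it. The means were -1.15 ± 0.29 in OVX and -1.89 ± 0.13 in sham females (SD, n = 3 each), a difference of 0.75 (SE 0.18, 95% confidence interval 0.31 to 1.18, adjusted p = 0.0623) that did not pass. It was 0.79 within the shared slide, and it passed with scaling to the 75th percentile (0.83, adjusted p = 0.0463) and in the deposited value table (0.80, adjusted p = 0.0496). Cd4 did not pass under the other 17 of the 19 alternatives, where normexp gave the smallest difference, 0.36 (adjusted p = 0.357), and leaving out each pool gave an adjusted p from 0.102 to 0.172. In males Cd4 was -1.22, -1.34, -1.04 and -1.24 in OOX pools and -1.44, -1.24, -0.70 and -0.98 in sham pools, and the OOX values lay inside the sham range. The difference was -0.12 (SE 0.18, adjusted p = 0.959). The male effect minus the female effect was -0.86 (SE 0.26, adjusted p = 0.266). As with Btk, sham females alone stood apart in the order of the group means, with ranges that did not overlap those of OOX males, the next group. No sham female array shared a slide or a scan day with a male array, so that for Cd4 this step and the batch cannot be told apart.

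Since rat macrophages carry Cd4, the macrophage list is given beside it. None of its 18 genes was called in either sex, and the median difference was 0.06 in females and 0.16 in males. The mean level of the 18 genes ran from 2.01 to 2.15 over OVX pools, from 1.79 to 2.05 over sham female pools, from 1.96 to 2.39 over OOX pools and from 1.65 to 2.28 over sham male pools. Their part in the Cd4, Btk and Blnk values was not tested.

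Markers of blood and of other tissue were read on the same arrays. None of 5 red blood cell genes was called in either sex, with medians of 0.38 in females and -0.22 in males. Of these 5, 2 were higher in OVX females and 1 lower in OOX males at an unadjusted limma p under 0.05. Their mean level ran from 4.83 to 5.10 over OVX pools and from 4.34 to 4.86 over sham female pools, which overlapped. Of 9 class II genes 1 was called higher in OVX females (Rfx5, called under 7 of 19 alternatives and under none that left out a pool) and 0 in males, with medians of 0.20 in females and -0.17 in males. None of 10 epithelium, 10 neuron or 7 endothelial genes was called, with female medians of -0.20, -0.90 and 0.04 and male medians of -0.31, 0.51 and -0.10. At an unadjusted limma p under 0.05, 6 of the 10 epithelium genes were lower in OOX males and 0 higher, beside 6.88% of all genes. In OVX females 0 epithelium and 0 neuron genes were so counted, and 1 endothelial gene was higher and 1 lower. In OOX males 1 neuron gene was higher. The mean level of the neuron genes ran from -1.34 to -0.06 over OVX pools and from -1.04 to 0.82 over sham female pools. Of 7 fibroblast genes 1, Mgp, was called lower in OVX females (difference -0.82, SE 0.18, adjusted p = 0.0489), with medians of -0.61 in females and 0.49 in males, and their mean level ran from 3.71 to 4.46 over OVX pools and from 4.57 to 4.81 over sham female pools. These ranges did not overlap. At an unadjusted limma p under 0.05, 4 of the 7 were lower in OVX females and 0 higher, beside 19.9% of all genes. Mgp was called under 3 of 19 alternatives, with an adjusted p from 0.079 to 0.137 as each pool was left out, and its difference was -0.44 with slide as a block. The part of these markers in the members' values was not tested.

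Cd8a, the coreceptor of cytotoxic T cells, was well above background on 1 OVX, 1 OOX and 1 sham male array. It was -4.01, -6.97 and -5.13 in OVX pools and -6.14, -6.60 and -5.47 in sham female pools, which overlapped. It was -6.06, -4.27, -6.11 and -4.90 in OOX pools and -6.33, -6.58, -4.14 and -4.56 in sham male pools, which overlapped too. The limma differences were 0.70 (SE 0.74, adjusted p = 0.625) in females and 0.07 (SE 0.65, adjusted p = 0.988) in males, and no fold is given in females because no sham array measured the gene.

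Cd3e, an invariant signaling chain of the T cell receptor, was well above background on OOX replicate 2 alone. It was -5.63, -4.26, -5.37 and -4.68 in OOX pools and -5.43, -6.45, -5.64 and -6.08 in sham male pools. The groups overlapped, and the difference of 0.92 (SE 0.34, adjusted p = 0.648) did not pass. In females it was read at -6.87, -6.81 and -5.72 in OVX pools and at -5.74, -6.39 and -6.02 in sham pools, none of them well above background, and no fold is given. Cd3g, another invariant chain, set beside it after its values were seen, was also highest in OOX replicates 2 and 4, at -2.98, -1.53, -2.29 and -1.42 in OOX pools against -2.89, -3.56, -2.46 and -2.52 in sham male pools. Cd3d was 1.31, 1.20 and 1.49 in OVX pools against 1.03, 1.02 and 1.15 in sham female pools, groups that did not overlap, and it did not pass (difference 0.27, SE 0.13, adjusted p = 0.294). In males Cd3d was 1.464, 1.195, 1.423 and 1.327 in OOX pools against 0.812, 0.999, 1.125 and 1.361 in sham pools. Its lowest OOX values were those of replicates 2 and 4, where Cd3e and Cd3g were highest.

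Of the other T cell receptor genes listed, 19 of 22 were measured. In OVX females 0 were called higher and 2 lower, with a median of 0.27, and in males 0 were called, with a median of 0.21. Those called lower, Trat1 and Cd28, an adaptor and a costimulatory receptor of T cells, were on no female array well above background. They are counted among the dim genes with a median of -0.59 described above, and no fold is given. Of 8 measured natural killer and cytotoxic cell genes none was called, with medians of -0.02 in females and -0.11 in males.

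**Figure D3:**
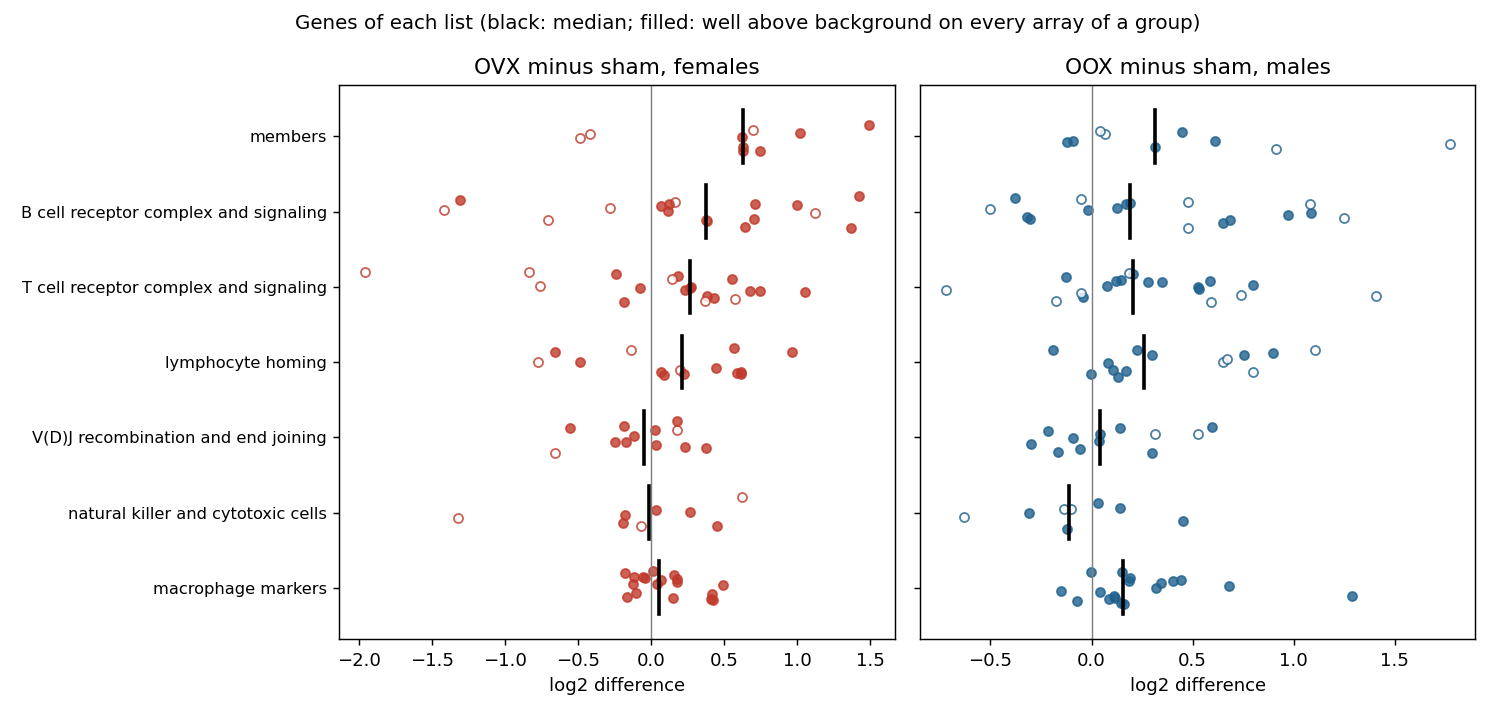
Log2 difference (horizontal axes) of OVX minus sham in females and OOX minus sham in males for the 9 members and for the measured genes of 6 lists (vertical axis). Each point is 1 gene, filled where every array of either group measured it well above background, and black bars are medians. The female medians run from 0.63 for the members to -0.05 for the recombination genes.

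Ccr7, the receptor for Ccl19 and Ccl21, was the member with the most alike differences in the 2 sexes. It was -2.22, -2.31 and -1.72 in OVX pools against -2.96, -2.56 and -2.62 in sham female pools. It was -2.05, -2.23, -1.90 and -2.34 in OOX pools against -3.15, -2.55, -2.49 and -2.77 in sham male pools. In neither sex did the groups overlap. The difference was 0.63 in females (SE 0.21, 95% confidence interval 0.13 to 1.13, adjusted p = 0.134) and 0.61 in males (SE 0.18, 95% confidence interval 0.19 to 1.03, adjusted p = 0.517), and neither passed. Within the shared slides it was 0.40 in females and 0.51 in males. With normexp the Ccr7 differences were 0.19 in females (adjusted p = 0.697) and 0.14 in males. The male effect minus the female effect was -0.02 (SE 0.28, 95% confidence interval -0.63 to 0.59, adjusted p = 0.987).

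Ccl19, one ligand of Ccr7, was 0.35, -0.07 and 0.34 in OVX pools against 0.45, 1.07 and 0.57 in sham female pools. These groups did not overlap, with OVX below, and the difference of -0.485 (SE 0.215, limma adjusted p = 0.253) did not pass. In males Ccl19 was 0.14, 3.90, -0.15 and 0.01 in OOX pools and -0.56, -0.04, 0.85 and 0.07 in sham pools, so that OOX replicate 2 alone was high. Ccl21, the other ligand, was well above background on OOX replicate 4 alone, at -1.91. On no female array was it measured, and its difference of -0.77 in females (adjusted p = 0.045) is that of dim readings. Among the 14 homing genes 1 was called higher (Itga4) and 1 lower (Ccl21) in females and 0 in males, with medians of 0.21 in females and 0.26 in males. Itga4 is an integrin chain through which leukocytes bind Vcam1. Itga4 was -0.84, -1.06 and -0.99 in OVX pools against -1.63, -1.60 and -1.51 in sham female pools, which did not overlap, with a difference of 0.62 (SE 0.12, adjusted p = 0.0401) and 0.67 within the shared slide. Leaving out any of the 6 pools gave Itga4 an adjusted p from 0.0825 to 0.125, and with normexp its difference was 0.35 (adjusted p = 0.271).

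In OOX males 0 of the 9 members were called, beside 0.0858% of all genes. At an unadjusted p under 0.05 there were 3 (Ccr7, Cd79b and Cd3e, all with positive differences), beside 6.88% of all genes. Ccr7 was the 1 member whose male groups did not overlap, beside 4.01% of all genes, and the 1 member within the thresholds that the methods name, beside 1.8% of all genes counted as higher. The median difference of the 9 was 0.31, against 0.02 over all genes. In the test of the difference between the sexes 0 members passed, beside the 0.251% of all genes given above, and 4 members (Btk, Cd4, Cd3e and Dclre1c) had an unadjusted p under 0.05, beside 10.3% of all genes. Of these Btk, Cd4 and Dclre1c had a larger value in females. All of them stand in the study's list of genes up-regulated in OVX females on these arrays, so that this direction is not independent evidence. The Cd3e value compares dim readings, 1 of 14 arrays being well above background, and no direction is read from it.

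**Figure D4:**
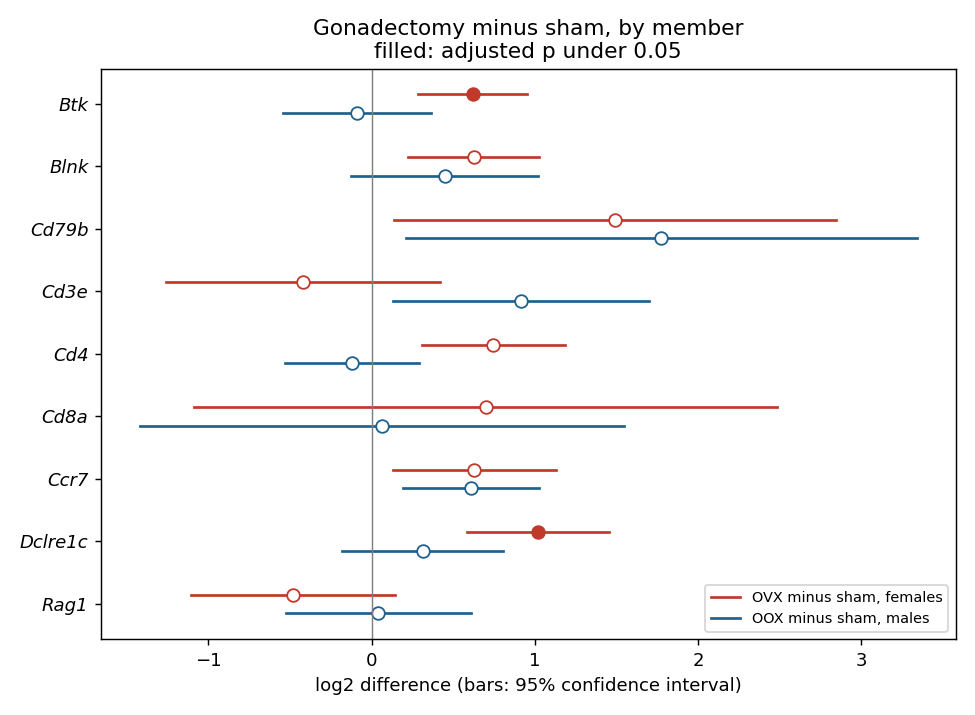
Log2 difference (horizontal axis) of OVX minus sham in females and OOX minus sham in males for each of the 9 genes (vertical axis). Points are limma estimates with 95% confidence intervals, filled where the adjusted p was under 0.05. Dclre1c at 1.02 and Btk at 0.62 in females are the filled points, and the intervals of Cd79b and Cd8a are the widest.

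In the order of the 4 group means, Blnk, Cd79b, Cd8a, Cd3e, Dclre1c and Rag1 had overlapping ranges between all neighbours. Ccr7 ran from OVX females through OOX males and sham females to sham males, and only OOX males and sham females, the middle neighbours, which shared no slide or scan day, did not overlap. Over the 14 arrays, members were correlated only where well above background on every array, which left out Btk, Cd79b, Cd8a, Cd3e and Rag1. Among the 4 compared, all correlations were positive, from 0.29 to 0.85. As a description across arrays that share groups, slides and scaling, the Pearson correlation between Blnk and Ccr7 was 0.85, between Dclre1c and Ccr7 0.62, between Blnk and Dclre1c 0.44, and between Cd4 and Blnk, Ccr7 and Dclre1c 0.29, 0.32 and 0.36. Of 11121 genes well above background on every array, those most like Dclre1c were Bend5 (0.91), Or4a80 (0.90) and Itga4 (0.89). Those most like Blnk were Klk11 (0.92), Ttc39d (0.92) and Tmem132b (0.91), and those most like Cd4 were Arsl (0.86), Donson (0.85) and Serpinb8 (0.84). Those most like Ccr7 were Trpm5 (0.92), Vom2r54 (0.92) and Mapk11 (0.91). These correlations describe the arrays and say nothing of shared function or control.

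**Figure D5:**
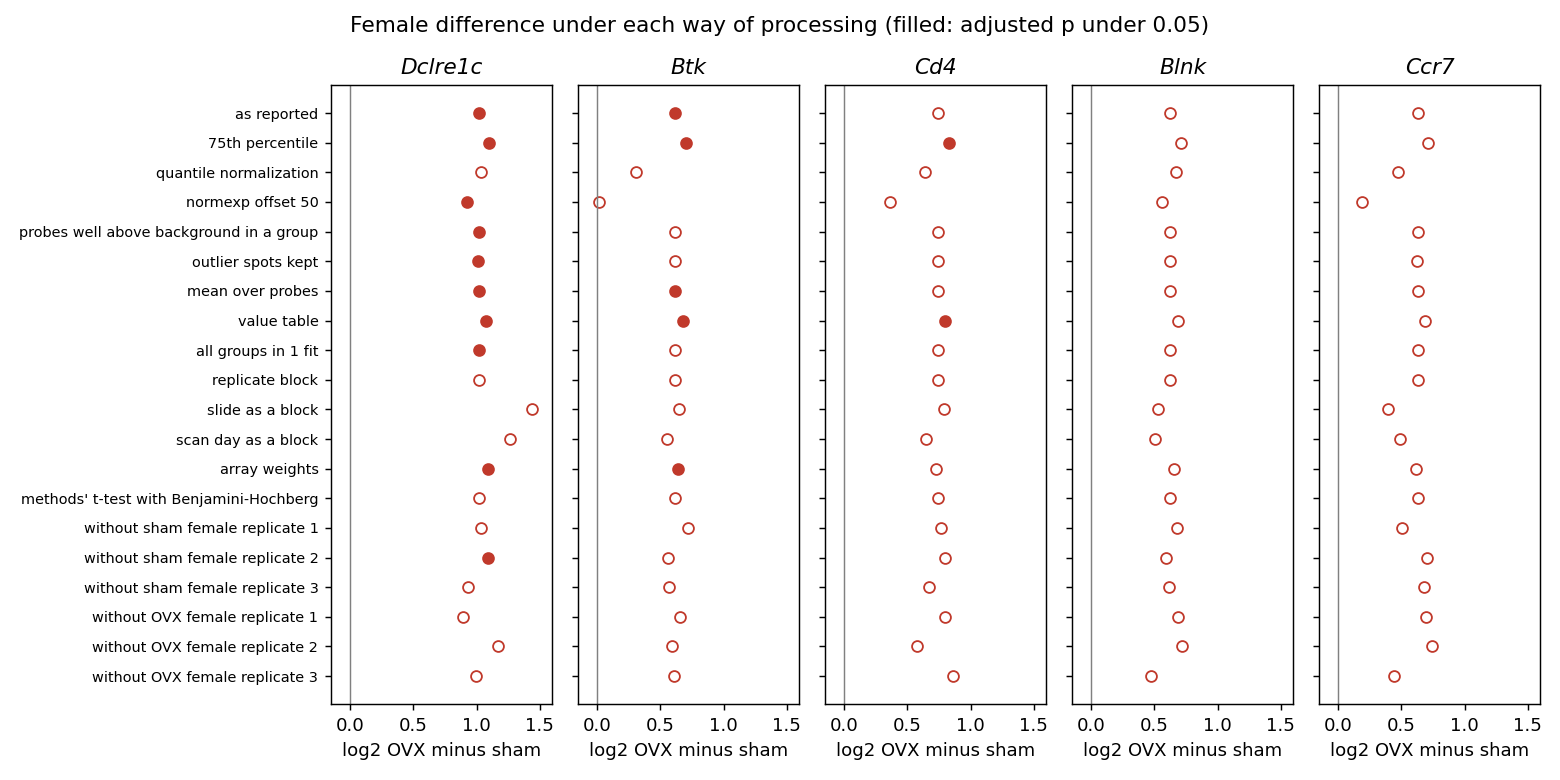
Log2 difference of OVX minus sham (horizontal axes) for Dclre1c, Btk, Cd4, Blnk and Ccr7 as reported and under 19 other ways of processing or with 1 pool left out (vertical axis). Filled points had an adjusted p under 0.05. All points lie above 0, Dclre1c is filled most often, and Blnk and Ccr7 are never filled.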

How the data were processed

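Gene expression was measured in pooled RNA of rat choroid plexus with 1-colour Agilent arrays. The deposited scanner files hold fluorescence intensity per spot, from which the authors' software, Agilent Feature Extraction 10.5.1.1 per the file headers, had subtracted the background. The deposited value table holds log2 values that the authors centred with BRB-ArrayTools, with medians that differ between arrays; it served as an alternative, and all of its columns belong to a sample. Control and outlier spots were left out, spots of a probe averaged, log2 taken and the array median subtracted. Of 30367 probes, 18004 were named through their accession from a RefSeq table (GRCr8, names only, as the arrays were annotated on rn4), which gave 15154 genes, and the brightest probe stood for a gene. Precision is limited by the number of arrays.

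Groups were compared by limma 3.58.1 in R 4.3.3, within sex and, for the difference between the sexes, over all arrays, with Benjamini-Hochberg adjustment over 27517 genes and unnamed probes. The fit was tested on simulated data. Other steps used Python 3.11.15 with numpy 2.4.6 and pandas 2.3.3. The alternatives were other scalings (75th percentile, quantiles), normexp (offset 50), leaving out each pool, array weights, the value table, a block for slide, for scan day or for replicate number, a single fit of all groups, keeping outlier spots, dropping dim probes, averaging the probes of a gene and the methods' t-test. Normexp had been planned on mean signals, which the files do not list, and was run on median signals. Its offset, added to every signal, shrinks log2 differences most where signals are dim. The 9 members and 13 gene lists were chosen with earlier results of these data known. Beside the members the text names, of each list, up to 4 genes per comparison and direction that passed, by smallest p, and for each member measured on all arrays the 3 genes of highest correlation. The 6 genes Spib, Cd3d, Cd3g, Ccl19, Lig4 and Rag2 were named after their values were seen. Promoter letters were searched on both strands of the 250 bases before each start that the RefSeq promoter table gives.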

Additional observations from a re-analysis of the deposited data

Results flagged for a closer look

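In groups of 4 pools, 3 of 32 sets of values had a pool whose gap to the others was above Dixon's critical value, where chance gives about 1 in 20. Cd28 was -3.48 in OOX replicate 2, the one array that measured it well above background. Ccl21 was -1.91 in OOX replicate 4, likewise measured on that array alone. Rfx5, the factor that binds promoters of class II genes, was -1.80 in OOX replicate 4, above the other OOX pools. Rfx5 had passed in females, at -1.86, -1.64 and -1.70 in OVX pools against -2.36, -2.46 and -2.35 in sham female pools (difference 0.65, SE 0.12, limma adjusted p = 0.0401). Leaving out any of the 6 female pools ended that call (Rfx5 adjusted p from 0.0773 to 0.125), and with normexp the difference was 0.25 (adjusted p = 0.536). The effect on Pik3ap1 differed between the sexes by 1.99 in the limma test of the difference itself (OOX minus sham in males less OVX minus sham in females).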

How the results depend on the processing

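Of 1005 differences of the 16 genes with alternatives, 960 kept their direction. For the members called in females (2 as reported), scaling to the 75th percentile and the value table gave 3, mean over probes and array weights 2, normexp, the dim filter (6 members tested), outlier spots kept and all groups in 1 fit gave 1, and quantile normalization, the slide and scan day blocks and the methods' t-test with Benjamini-Hochberg 0, with 0 to 1 as pools were left out. The cause was not tested. Genes called in females were 942 as reported, 64 with quantile normalization, 111 with normexp, 188 with the dim filter, 229 with all groups in 1 fit, 0 with slide as a block, 14 with scan day as a block and 3 with the methods' t-test, and 2 to 950 as pools were left out (950 without sham replicate 2, at most 16 without any other). In males no setting called a member. Genes called there were 13 as reported, 0 with normexp, all groups in 1 fit or the methods' t-test, 22 with array weights and 6 to 12 as pools were left out. In the difference between the sexes, 38 genes became 83 with the 75th percentile, 64 with quantiles, 59 with the dim filter, 69 with the value table, 10 with slide as a block, 130 with array weights and 19 to 49 as pools were left out.

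The replicate numbers of the labels were not shown to pair the samples. Same-numbered pools correlated in their deviations at 0.35, -0.01 and 0.24 in females and at -0.10, -0.60, 0.08 and 0.34 in males. OVX replicates 1 and 3 correlated best with the sham pool of their own number, and OVX replicate 2 and every OOX replicate did not. With 3 or 4 pools per group such correlations cannot exclude pairing. With the replicate block 0 members were called in each comparison, and 0 genes in females, 8 in males and 9 in the difference. A block for scan day was not possible in males, whose arrays share 1 day.

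The Cd79b bound in females, 0.53 on the log2 scale, ran from -0.13 (without OVX replicate 3) to 1.04 as pools were left out, a check added after the data were seen. Differences that changed sign had not passed. In males these were Cd8a -0.21 and Rag1 -0.13 with quantiles, Ccl21 -0.032, Cd28 -0.12, Cd3e -0.068, Cd8a -0.17 and Rag1 -0.21 with normexp, Cd28 -0.22, Cd4 0.10 and Rfx5 0.038 with slide as a block, and Cd8a -0.44 and Itga4 -0.11 with array weights. As pools were left out they ran from -0.064 to 1.09 for Cd28, -0.33 to 0.49 for Cd8a, -0.0068 to 0.28 for Itga4, -0.046 to 1.55 for Ccl21, -0.10 to 0.21 for Rag1, -0.21 to 0.076 for Btk and -0.24 to 0.010 for Cd4. In the difference between the sexes they were Trat1 -0.37 with quantiles, Cd28 -0.019, Rag1 -0.16 and Trat1 -0.28 with normexp, Cd79b -0.67 and Trat1 -0.056 with slide as a block, Ccr7 0.12 with scan day as a block, and Ccr7 0.015 and Cd79b -0.16 with array weights, and, as pools were left out, from -0.15 to 0.16 for Ccr7, -1.43 to 0.048 for Cd8a, -0.23 to 0.94 for Cd79b and -0.21 to 0.30 for Trat1. With slide as a block Ccl21 in males was 4.63 (adjusted p = 0.0374), which rests on OOX replicate 4.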
